A study of Mus musculus with 2 samples.

Results

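Emx2, Ntm, Cstdc5 and Kcne1l are 4 mouse genes, of 32286 features counted, whose transcripts were more abundant in the epidermis of mutant than of control embryonic skin. They were chosen by name, for their epidermal levels in these same libraries, so their mutant and control values in epidermal cells are given as a description, with no test. Skin of the back and flank was profiled by droplet single-cell RNA sequencing at embryonic day E13.5, before hair placodes are visible there. The mutant library was made from embryos titled dermal SmoM2YFP mutant, in which Axin2CreER had been combined with Rosa-lox-STOP-lox-SmoM2YFP. The control library was made from littermates titled SmoM2YFP, for which the title names no Cre. SmoM2YFP joins a yellow fluorescent protein to a form of Smoothened that signals without ligand, and it switches the Hedgehog pathway on in cells in which the recombinase has removed the stop cassette. Axin2CreER drives the recombinase in cells that express Axin2, a gene induced by Wnt signals, and it is therefore limited neither to the dermis nor to skin.

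Cells of 2 to 3 embryos were pooled into the single library of each group, so none of the differences below could be checked in replicates. Intervals are 95% intervals for counting error only and are narrower than the spread between embryos. The genotype entries of the 2 libraries are crossed relative to their titles, and groups follow the titles. A UMI, or unique molecular identifier, stands for 1 captured transcript. In dermal cells the Hedgehog target Ptch1 was at 251 UMIs per 1000000 (CPM) in the library titled mutant and at 5.38 CPM in the library titled control, and the activator Gli1 was at 35.8 and 3.12 CPM. The added eYFP feature was at 29.6 CPM in mutant dermal cells and 0.436 CPM in control dermal cells. In epidermal cells it had 5 UMIs in the mutant library and 1 UMI in the control library. After filtering, 8576 mutant cells with a median of 6688 UMIs and 11660 control cells with a median of 7474.5 UMIs remained.

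Epidermal cells were those with at least 20 UMIs of the keratins Krt5, Krt14 and Krt15 together. There were 996 of them in the mutant library, which was 11.6% of its cells, and 379 in the control library, which was 3.25%. Their UMIs summed to 8971737 in the mutant and 4502763 in the control, with a median of 8422 UMIs per mutant cell and 10927 per control cell. Shares of cells can be set by dissection and dissociation, so they are not read as a change in cell number. All 9 epidermal markers reached 10 CPM, but Krt5, Krt14 and Krt15 among them set the gate and so do not test the label. Krt10 also passed 10 CPM in other cells, at 28.2 CPM in mutant dermal and 31.6 CPM in mutant muscle cells. Trp63, the transcription factor of stratified epithelia, was at 157 CPM in mutant and 145 CPM in control epidermal cells, and the adhesion gene Epcam at 333 and 398 CPM. In dermal cells Trp63 was at 0.699 CPM in the mutant and 0.235 CPM in the control, and Epcam at 2.57 and 3.47 CPM. Of the gated cells, 962 mutant and 375 control cells also lay in the 3 clusters named epidermal-like. Clusters were built on 2000 variable genes and named from marker lists, and the epidermal list includes the gate keratins. The libraries shared 48 barcodes, none of them among gated cells.

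The 4 genes have no known common pathway. Emx2 encodes a homeobox transcription factor best known for its part in forming the cerebral cortex and the urogenital tract. Ntm encodes neurotrimin, a cell-surface adhesion protein of the IgLON family that is anchored in the membrane by a lipid. Cstdc5, which the GENCODE annotation calls BC100530, belongs to the stefin A cluster of cystatin-domain genes, whose best-studied products inhibit cysteine proteases. Kcne1l, also known as Kcne5, encodes an accessory subunit that modifies potassium channels of the KCNQ family. At this stage the epidermis is a basal layer with the first suprabasal cells and a transient periderm above it, and it signals to and receives signals from the dermis as hair placodes are laid down.

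The genes lie on 4 chromosomes (mouse build GRCm38, GENCODE M21). Emx2 is at chr19:59458372-59465357 on the plus strand, and its antisense partner Emx2os, at chr19:59425104-59458635 on the minus strand, shares 264 exonic bases with it at the 5′ ends of both. Ntm spans chr9:28994750-29963141, Cstdc5 lies at chr16:36359382-36367748 and Kcne1l at chrX:142304752-142306294, all on the minus strand. The libraries count transcript 3′ ends, so the sequence there decides which gene receives a read. None of the 828 stretches of 50 bases within the last 500 bases of Emx2 transcripts, and none of the 451 of Kcne1l, occurred in a transcript of another gene, and for Ntm 6 of 3518 did (0.171%). For Cstdc5, 194 of 671 did (28.9%), in Csta1, Cstdc6 and Stfa1. The last 120 coding bases of these stefin genes, all on chromosome 16, and of Stfa3 are shown because they bear on which gene the Cstdc5 count belongs to. They run 5′ to 3′ along the GENCODE transcripts, and capitals mark every base that differs from Cstdc5.
Cstdc5: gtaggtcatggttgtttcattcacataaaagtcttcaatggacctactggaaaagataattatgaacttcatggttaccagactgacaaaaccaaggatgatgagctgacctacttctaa
Cstdc6: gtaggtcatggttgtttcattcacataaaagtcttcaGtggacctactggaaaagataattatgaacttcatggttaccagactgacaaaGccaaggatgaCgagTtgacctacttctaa
Stfa1: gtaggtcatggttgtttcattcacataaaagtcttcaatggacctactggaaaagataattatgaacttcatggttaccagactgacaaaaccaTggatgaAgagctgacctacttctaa
Stfa3: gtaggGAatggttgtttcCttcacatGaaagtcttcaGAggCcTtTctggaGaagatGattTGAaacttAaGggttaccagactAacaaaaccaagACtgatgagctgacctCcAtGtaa
Csta1: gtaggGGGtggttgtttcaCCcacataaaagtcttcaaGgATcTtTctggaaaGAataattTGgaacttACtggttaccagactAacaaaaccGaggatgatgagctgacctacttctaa
Cstdc6 differed from Cstdc5 at 4 of these 120 bases and Stfa1 at 2, against 22 for Stfa3 and 18 for Csta1. Reads that fall in such stretches can match more than 1 gene, and how they were handled is not given in the sources used here. The Cstdc5 value may therefore include transcripts of Csta1, Stfa1 or Cstdc6, or may leave out some of its own. The count files gave these few UMIs: Cstdc6 had 3 in mutant and 1 in control epidermal cells, and Stfa1 had 1 in mutant and 0 in control cells.

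The bases before the transcription starts are shown, as a description, for the promoters whose windows hold bases outside annotated exons. The common direction of the 4 genes followed from their choice. The windows are the 250 bases before each RefSeq start (GRCm38.p6), in transcript orientation on the minus strand, trimmed to the bases outside exons, and capitals mark a GC box. Both Ntm windows lie inside the annotated Ntm gene, whose 5′ end on the minus strand is at chr9:29963141. No window at that end was searched.
Ntm first start, chr9:29413453-29413702: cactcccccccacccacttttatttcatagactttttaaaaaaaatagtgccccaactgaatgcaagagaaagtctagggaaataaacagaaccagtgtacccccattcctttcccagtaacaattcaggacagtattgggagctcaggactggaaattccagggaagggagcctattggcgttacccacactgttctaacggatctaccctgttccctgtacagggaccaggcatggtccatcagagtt
Ntm second start, chr9:29412686-29412935: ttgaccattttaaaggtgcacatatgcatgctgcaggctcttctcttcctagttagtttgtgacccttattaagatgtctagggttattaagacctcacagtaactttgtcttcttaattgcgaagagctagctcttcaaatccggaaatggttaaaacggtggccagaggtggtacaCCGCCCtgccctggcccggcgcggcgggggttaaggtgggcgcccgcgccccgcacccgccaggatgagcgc
Cstdc5, chr16:36367749-36367820: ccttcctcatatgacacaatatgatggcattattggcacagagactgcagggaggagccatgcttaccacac
Kcne1l, chrX:142306295-142306448: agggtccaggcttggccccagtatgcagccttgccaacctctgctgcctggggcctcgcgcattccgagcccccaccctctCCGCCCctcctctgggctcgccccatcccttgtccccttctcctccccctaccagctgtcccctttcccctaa
The GC box was searched as GGGCGG on both strands. It was found in the printed windows of the second Ntm start and of Kcne1l, and in the Emx2 window, which lies wholly within annotated exons and is not printed. Of 32851 mouse promoter windows of this length, 32.7% held it. Neither GACCACCCA (a site of the GLI factors that carry Hedgehog signals, in 0.225% of windows) nor CTTTGAT (TCF and LEF factors of the Wnt pathway, 3.21%) was found in any of the 5 windows of the 4 genes. The same held for TAATTA (homeodomain core, 4.84%), TATAAA (a core promoter element, 12.4%) and TGANTCA (AP-1, 6.75%). The full windows of Emx2 and Kcne1l were 67.2% and 68% G or C, those of Ntm 46.8% and 53.6% and that of Cstdc5 48.8%, where the median of all windows was 52.4%. The absence of these letters from a window says nothing about whether a factor acts on the gene.

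Emx2 had 189 UMIs in the 996 mutant epidermal cells and 15 UMIs in the 379 control cells. This is 21.1 CPM (18.2 to 24.3) in the mutant and 3.33 CPM (1.86 to 5.49) in the control, a ratio of 6.32 (3.74 to 11.5). At least 1 Emx2 UMI was seen in 158 mutant cells (15.9%) and in 14 control cells (3.69%). Most positive cells held a single UMI, with a highest count of 4 in a mutant cell and 2 in a control cell. The antisense transcript Emx2os had 72 UMIs in mutant and 1 in control epidermal cells, which is 8.03 and 0.222 CPM. In dermal cells Emx2os was at 13 CPM in the mutant and 22.3 CPM in the control. The overlap of Emx2 and Emx2os lies at the 5′ ends of both, whereas the libraries count 3′ ends. How reads from the strands of the overlap were told apart is not given in the sources used here. Whether reads of either gene were counted for the other was not tested. Emx1, the other member of the EMX family, had 13 UMIs in mutant and 5 in control epidermal cells.

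Ntm had 480 UMIs in mutant and 52 in control epidermal cells, or 53.5 CPM (48.8 to 58.5) against 11.5 CPM (8.62 to 15.1), a ratio of 4.63 (3.47 to 6.29). A UMI was present in 335 mutant cells (33.6%) and 43 control cells (11.3%). It was the member seen in most cells of both libraries. Among the other 4 IgLON genes, which encode related neural adhesion proteins, Negr1 was the only one to reach 10 CPM, and it too was higher in the mutant, at 13 CPM (117 UMIs) against 2.0 CPM (9 UMIs), a ratio of 6.52 (3.32 to 14.6). Lsamp had 3 UMIs in each library, Opcml 8 in mutant and 2 in control cells, and Iglon5 4 and 3. Lsamp and Opcml were readily counted in dermal cells, where Lsamp was at 37.1 CPM in the mutant and 53.4 CPM in the control.

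Cstdc5 had 279 UMIs in mutant and 6 in control epidermal cells. Its level was 31.1 CPM (27.6 to 35.0) in the mutant and 1.33 CPM (0.489 to 2.90) in the control, a ratio of 23.3 (10.6 to 64.1). A UMI was found in 181 mutant cells (18.2%) and 5 control cells (1.32%), and the highest count in a cell was 10 in the mutant and 2 in the control. Of 17 symbols on the list of stefin and cystatin-domain genes, 11 were in the files, and 2 of these reached 10 CPM. The other was Cstb, the broadly expressed stefin B, at 126 CPM in mutant and 120 CPM in control cells, a ratio of 1.05 (0.946 to 1.16). Below 10 CPM, the stefin A genes Stfa3 and Csta1 had more UMIs in the mutant: 69 against 3 for Stfa3 and 47 against 6 for Csta1. Their ratios were 11.5 (3.79 to 57.3) and 3.93 (1.68 to 11.3). None of the terminal stretches of 50 bases of Stfa3 occurred in a transcript of another gene, and 2.67% of those of Csta1 did.

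Kcne1l had 402 UMIs in mutant and 24 in control epidermal cells, which is 44.8 CPM (40.5 to 49.4) against 5.33 CPM (3.42 to 7.93) and a ratio of 8.41 (5.57 to 13.3). It was seen in 292 mutant cells (29.3%) and 24 control cells (6.33%). No control cell held more than 1 Kcne1l UMI, while 60 mutant cells held 2 and 20 held 3 or more. None of the other 9 genes on the list of KCNE and KCNQ channel genes reached 10 CPM in epidermal cells. Kcne4, an accessory subunit of the same kind, had 4 UMIs in each library, and the channel gene Kcnq1 had 0 UMIs in both.

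**Figure D1:**
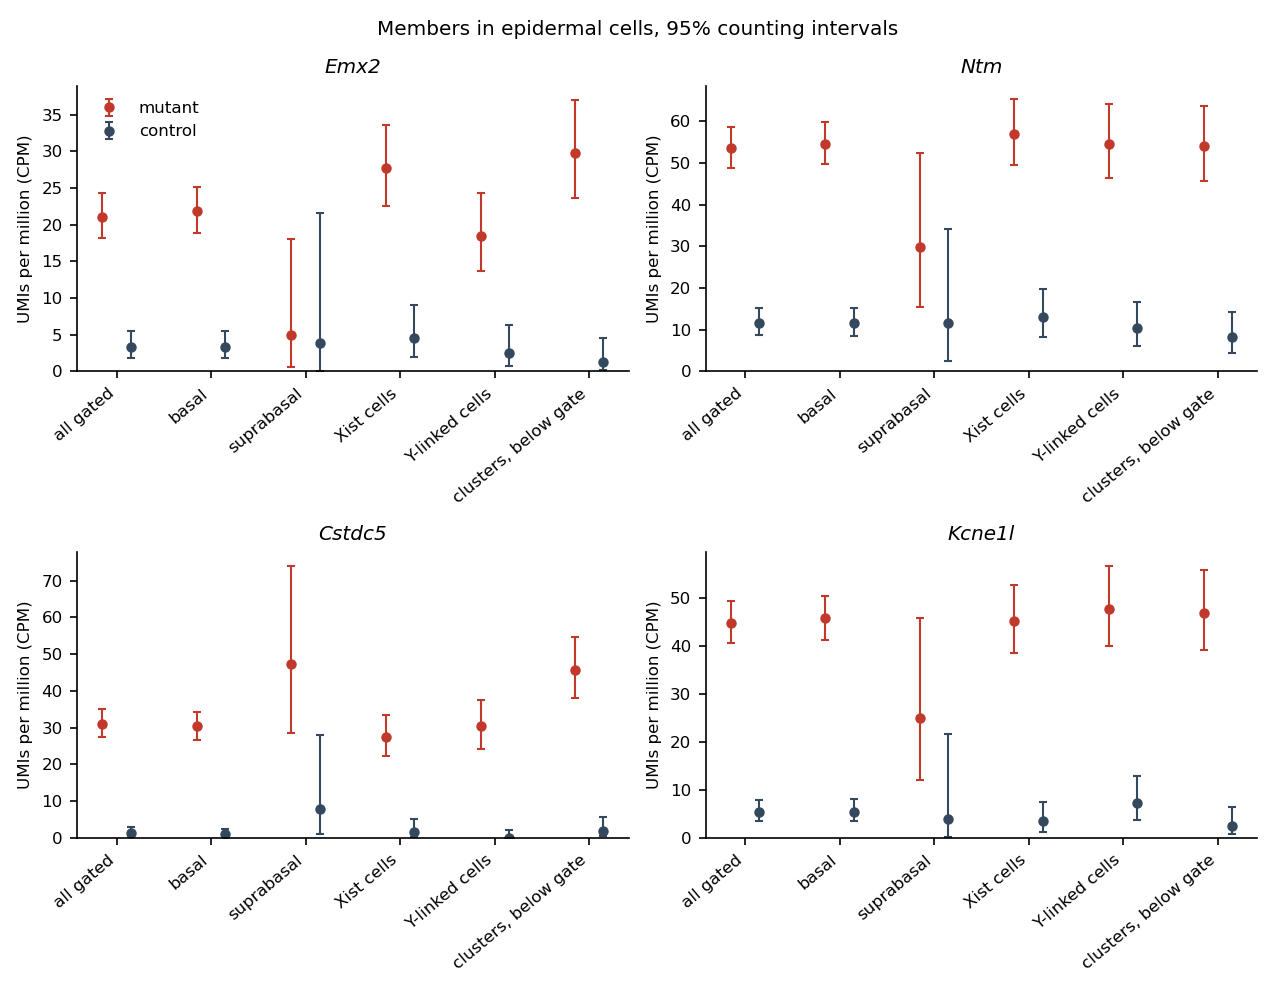
Levels of the 4 genes in epidermal cells and their subsets, in CPM on linear axes, mutant (red) left of control (blue); bars are exact Poisson 95% intervals for counting error. Mutant points lie above control points in every subset drawn, and the intervals overlap for Emx2, Ntm and Kcne1l in suprabasal cells, of which the mutant had 36 and the control 16.

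Of 7316 genes measured at 10 CPM or more in epidermal cells of at least 1 library, 293 (4.0%) were at least 1.5-fold higher in the mutant, and all 4 members were among them, as their choice required. When 1 CPM was added to both values, Cstdc5 ranked 3rd, Kcne1l 8th, Emx2 15th and Ntm 20th by ratio. Another 207 genes (2.83%) were lower by that fold. The median log2 ratio of all 7316 genes was 0.04, so the totals used for scaling did not set the direction of the members. Most of the genes ranked above Kcne1l were hemoglobin genes, whose values are given with the other signals below.

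**Figure D2:**
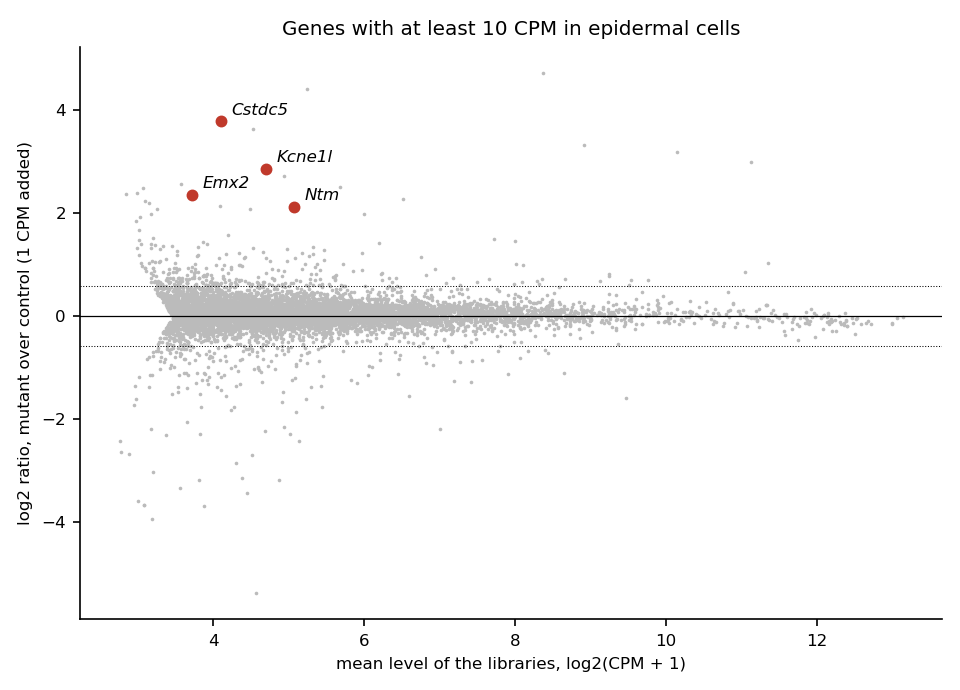
Every gene with at least 10 CPM in epidermal cells of either library (grey), with its mean level across the libraries on the x axis and its log2 ratio, mutant over control, on the y axis, both with 1 CPM added; dotted lines mark 1.5-fold. The 4 members (red) have log2 ratios of 3.78 (Cstdc5), 2.86 (Kcne1l), 2.35 (Emx2) and 2.12 (Ntm), at intermediate to low mean levels.

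The control cells were deeper, so each epidermal cell was also thinned to 3000 UMIs, and no cell was too shallow for this. After thinning, Emx2 was seen in 6.43% of mutant and 0.528% of control cells, a difference of 5.90 percentage points (3.91 to 7.67). The corresponding shares were 13% and 4.49% for Ntm, 7.93% and 0.264% for Cstdc5, and 12.1% and 2.11% for Kcne1l. All 4 genes were thus detected in a larger share of mutant cells at equal depth. Macrophages served as a class that should lack these genes. Thinned alike, they showed Emx2 in 0.606% of mutant and 0% of control cells, Ntm in 0.303% and 0.822%, Cstdc5 in 0% of both, and Kcne1l in 0.303% and 0%, at median depths of 8774 UMIs per mutant and 11478 per control macrophage before thinning. The shares in mutant epidermal cells lay above these, and so did the control epidermal shares of Ntm and Kcne1l. The control epidermal shares of Emx2 and Cstdc5 rest on 2 cells and 1 cell.

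At full depth, none of the 4 genes was seen in 361 mutant cells (36.2%) and in 303 control cells (79.9%). Exactly 1 was seen in 366 mutant and 66 control cells, and 2 were seen in 211 mutant and 10 control cells. In the mutant, 54 cells held 3 of the genes and 4 cells held all 4, and no control cell held more than 2. Most mutant cells with a member therefore carried a UMI of 1 gene. In thinned mutant cells, the number of cells with both genes of a pair was set beside the product of their shares. Emx2 and Ntm met in 11 cells where the product gives 8.29, Emx2 and Kcne1l in 9 where it gives 7.78, and Ntm and Cstdc5 in 13 where it gives 10.2. The other 3 pairs met in fewer cells than the product, Ntm and Kcne1l in 12 (15.7), Cstdc5 and Kcne1l in 7 (9.60) and Emx2 and Cstdc5 in 2 (5.08). With such low counts, these data do not separate a group of cells with all 4 genes from independent capture.

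Basal cells, with fewer than 3 UMIs of Krt1 and Krt10, keratins of cells that have left the basal layer, numbered 960 in the mutant and 363 in the control. Suprabasal cells, with 3 or more, numbered 36 and 16. In mutant basal cells Emx2 was at 21.8 CPM and in mutant suprabasal cells, with 2 UMIs, at 4.99 CPM, a basal over suprabasal ratio of 4.38 (1.19 to 36.4). Ntm was at 54.6 CPM in mutant basal and 29.9 CPM in mutant suprabasal cells, a ratio of 1.83 (1.04 to 3.56). Kcne1l was at 45.7 and 24.9 CPM in the same cells, with the same ratio of 1.83 and an interval of 0.987 to 3.86 that includes 1. Cstdc5 stood the other way round, at 30.3 CPM in basal and 47.4 CPM in suprabasal cells, a ratio of 0.641 (0.402 to 1.08). The Emx2 and Ntm differences did not keep their direction when 1 UMI of Krt1 or Krt10 was enough to call a cell suprabasal, at ratios of 0.95 and 0.963. The Cstdc5 ratio was 1.02 with that limit and 1.13 with a limit of 10 UMIs, so its order between the layers depended on the limit as well. The limit of 1 UMI is a loose one, which called 445 mutant and 195 control cells suprabasal. Krt10 was at 61.1 CPM in mutant epidermal cells but also at 28.2 CPM in mutant dermal and 31.6 CPM in mutant muscle cells.

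Control suprabasal cells held 1 Emx2, 3 Ntm, 2 Cstdc5 and 1 Kcne1l UMI, too few to order the layers there. Between libraries, the basal ratios, mutant over control, were 6.62 for Emx2, 4.73 for Ntm, 32.2 for Cstdc5 and 8.44 for Kcne1l. In suprabasal cells Cstdc5 was at 47.4 CPM in the mutant and 7.77 CPM in the control, a ratio of 6.09 (1.47 to 53.9). For the other 3 genes the suprabasal intervals of the ratio included 1, so a difference there was not detectable at this depth.

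The gated cells of the larger epidermal-like clusters gave the same direction. In cluster 11, with 527 mutant and 213 control cells, Emx2 was at 23.5 CPM in the mutant and 4.13 CPM in the control, and Ntm at 63.5 and 14.8 CPM. In cluster 12, with 394 mutant and 152 control cells, Emx2 was at 18.5 and 1.42 CPM and Ntm at 43.4 and 6.4 CPM. Cstdc5 was at 29.4 CPM in mutant and 1.03 CPM in control cells of cluster 11 and at 29.5 and 2.13 CPM in cluster 12. Both clusters thus showed close mutant levels of Cstdc5, and the Ntm level was lower in cluster 12 in either library. Cluster 24, whose leading genes include Krtdap, Krt17 and Sfn of differentiating epidermis and periderm, held 41 mutant and 10 control gated cells. Its mutant cells had the most Cstdc5 of the 3 clusters, at 67.8 CPM (45.4 to 97.4), and its 10 control cells had 0 UMIs of any member, which allows up to 25.2 CPM. The mutant Cstdc5 level was 2.69 times that limit, leaving out the counting error of the mutant level.

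Cells on both sides of the keratin threshold showed the same direction. Cells just inside it, with 20 to 24 keratin UMIs, had Emx2 at 20.9 CPM in the mutant and 3.24 CPM in the control, and Kcne1l at 48.8 and 4.85 CPM. Cells just outside it, with 15 to 19 keratin UMIs, had Emx2 at 28.0 and 1.02 CPM and Kcne1l at 41.1 and 2.03 CPM. With few control UMIs, the ratios there had wide intervals, 27.5 (4.71 to 1108) for Emx2 and 20.2 (5.39 to 170) for Kcne1l. In the epidermal-like clusters, 431 mutant and 192 control cells fell below the threshold and so took no part in the counts above. In them Emx2 was at 29.8 CPM in the mutant and 1.27 CPM in the control, a ratio of 23.4 (6.27 to 197). Ntm was at 54.0 and 8.27 CPM in the same cells, Cstdc5 at 45.8 and 1.91 CPM, and Kcne1l at 46.9 and 2.54 CPM.

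Genes of the hair placode, the epidermal thickening that starts a follicle, differed between the libraries. Dkk4, a Wnt inhibitor and early placode gene, had a UMI in 1 mutant and 54 control epidermal cells. Of the 6 placode genes at 10 CPM or more, 5 were at least 1.5-fold lower in the mutant, among them Lef1 at 44.7 CPM in mutant and 209 CPM in control cells and Bmp2 at 1.11 and 26.2 CPM. Sostdc1, a BMP and Wnt antagonist, was the 1 that was higher, at 374 CPM in mutant and 136 CPM in control cells. The Dkk4-positive control cells held 2 Emx2, 5 Ntm, 0 Cstdc5 and 4 Kcne1l UMIs, and their Ntm level of 7.36 CPM (2.39 to 17.2) had an interval that overlapped that of control cells without Dkk4, at 12.3 CPM (9.03 to 16.3). Without any Dkk4-positive cell, the ratios, mutant over control, were 6.21 for Emx2, 4.36 for Ntm, 19.8 for Cstdc5 and 8.54 for Kcne1l. Of the keratins that set the gate, Krt5 was at 875 CPM in mutant and 580 CPM in control cells, Krt15 at 915 and 567 CPM, and Krt14 at 1532 and 1438 CPM.

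Sex of the pooled embryos was considered because Kcne1l lies on the X chromosome. Cells with at least 2 Xist UMIs and no UMI of 4 Y-linked genes numbered 391 in the mutant and 144 in the control, and cells with a Y-linked UMI and no Xist numbered 303 and 132. In the Xist cells Kcne1l was at 45.2 CPM in the mutant and 3.42 CPM in the control, and in the Y-linked cells at 47.8 and 7.34 CPM. The mutant level of Kcne1l was thus close in both kinds of cell. Emx2 was at 27.7 CPM in mutant and 4.57 CPM in control Xist cells and at 18.5 and 2.45 CPM in Y-linked cells. Ratios in the Xist and Y-linked cells were 6.06 and 7.54 for Emx2 and 4.34 and 5.25 for Ntm. Summed over all epidermal cells, Xist was at 312 CPM in the mutant and 304 CPM in the control, so the mix of sexes was similar by this measure. The 19 genes of body position, mostly Hox genes, summed to 464 CPM in mutant and 625 CPM in control epidermal cells, a ratio of 0.742 (0.707 to 0.779). All 7 of them at 10 CPM or more lay within 1.5-fold, and the 6 Hox genes among the 7 had the lower level in the mutant. Hoxa7 was at 221 CPM in mutant and 317 CPM in control cells, a ratio of 0.699 (0.653 to 0.749), and Hoxc8 at 116 and 142 CPM, a ratio of 0.820 (0.742 to 0.906). Below 10 CPM, Hoxa9 had a ratio of 0.551 (0.353 to 0.862) and Hoxc9 of 0.335 (0.157 to 0.690). The part of these differences in the member levels was not tested.

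Emx2 and Ntm were also genes of the dermis, and there the difference ran the other way. In dermal-like cells, 4944 in the mutant and 8175 in the control, Emx2 was at 35.9 CPM (33.9 to 38.1) in the mutant and 47.7 CPM (46.0 to 49.5) in the control, a ratio of 0.753 (0.702 to 0.807). Ntm was at 41.6 CPM (39.4 to 43.9) in mutant and 70.9 CPM (68.7 to 73.0) in control dermal cells, and its ratio was 0.587 (0.551 to 0.625). The epidermal level of Ntm was 1.29 times the dermal level (1.16 to 1.43) in the mutant and 0.163 times (0.122 to 0.214) in the control. For Emx2 the epidermal level was 0.586 times the dermal level in mutant cells and 0.0698 times in control cells. Of 8140 genes measured in dermal cells, 346 (4.25%) were at least 1.5-fold higher in the mutant and 360 (4.42%) at least 1.5-fold lower, and Ntm was among the lower ones.

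Dermal cells of the libraries fell largely into different clusters, so the dermal difference was also read within clusters. In cluster 0, led by Prph, Ccn3 and Col14a1 and holding 566 mutant and 1385 control cells, Emx2 was at 68.5 CPM in the mutant and 68.9 CPM in the control. In cluster 8, with 307 and 751 cells, it was at 79.3 and 68.7 CPM, and in cluster 13, with 169 and 718 cells, at 63.4 and 64.3 CPM. Emx2 levels of the libraries were thus close in clusters 0 and 13, and the mutant level was the higher one in cluster 8. It was also the higher one in clusters 5, 6 and 9, which held 73, 77 and 67 mutant cells and 1089, 1037 and 873 control cells. Emx2 was at 40.9 CPM in mutant and 29.1 CPM in control cells of cluster 5, at 45.2 and 37.9 CPM in cluster 6 and at 46.7 and 41.5 CPM in cluster 9. In none of these 6 clusters was Emx2 as far below the control level as in the dermal-like class as a whole. No intervals were computed for the Emx2 and Ntm levels of dermal clusters, so small differences there are not separated from counting error. Ntm was at 11.4 CPM in mutant and 15.1 CPM in control cells of cluster 0 and at 37.8 and 45.8 CPM in cluster 8, but at 72.8 and 41.5 CPM in cluster 13. It was lower in mutant cells of clusters 5, 6 and 9, at 86.0 and 102 CPM, 51.4 and 94.3 CPM, and 57.1 and 65.3 CPM, mutant and control in each. Among control dermal cells Ntm was highest in cluster 1, which is led by Calb1, Nrgn and Crabp1 and held 1404 control but 34 mutant cells, at 120 CPM, a cluster in which Emx2 was lowest, at 27.6 CPM. Clusters 2, 4 and 7, which held 1319, 1247 and 1063 mutant cells but 4, 0 and 5 control cells and were led by genes such as Hhip, Ptch1 and Foxd1, had Emx2 at 30.9, 31.4 and 15.1 CPM and Ntm at 51.2, 46.6 and 21.1 CPM.

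**Figure D3:**
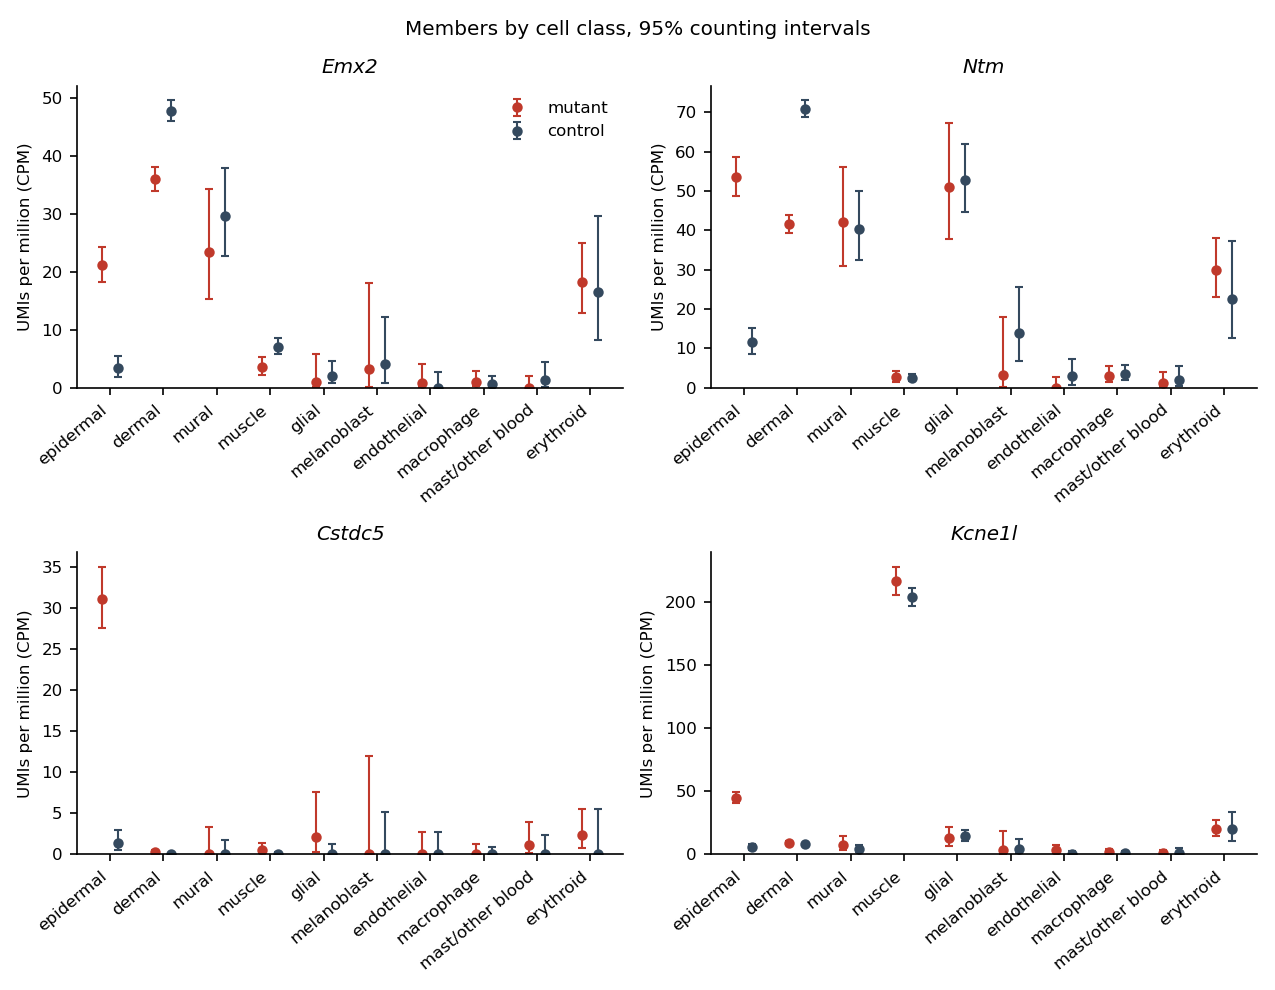
Levels of the 4 genes by cell class, in CPM on linear axes, mutant (red) left of control (blue); bars are exact Poisson 95% intervals, and the epidermal class is the keratin-gated cells. The other classes leave out keratin-gated cells, and Cstdc5 is near 0 in them. Kcne1l is highest in muscle in both libraries, and for Emx2 and Ntm the dermal level is lower and the epidermal level higher in the mutant.

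Cstdc5 was rarely seen in the other cell classes, which leave out cells that pass the keratin gate. Mutant dermal cells held 7 Cstdc5 UMIs (0.222 CPM) and control dermal cells 0, which allows up to 0.0503 CPM. The epidermal level was 140 times the dermal level (67.0 to 351) in the mutant. In the control it was 26.5 times the dermal limit, leaving out the counting error of its 6 epidermal UMIs. No control class outside the epidermis held a Cstdc5 UMI, and the mutant classes held at most 5 beside the dermal 7. With gated cells included, the 60 mutant cells of erythroid-like cluster 26 had Cstdc5 at 23.8 CPM and Kcne1l at 76 CPM. The 189 mutant cells of erythroid-like cluster 20 had them at 0.564 and 5.64 CPM.

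Kcne1l was highest in muscle-like cells, at 216 CPM (205 to 228) in 713 mutant cells and 204 CPM (197 to 211) in 1016 control cells. The interval of the muscle ratio of 1.06 (0.995 to 1.13) includes 1, and of 7194 genes measured in muscle 140 (1.95%) were at least 1.5-fold higher and 68 (0.945%) lower. It was higher in the Pax7-expressing cluster 3, at 270 CPM in mutant and 237 CPM in control cells, than in cluster 17, led by Tnnt2 and Myog, at 67.2 and 54.0 CPM. The epidermal level was 0.207 times the muscle level (0.185 to 0.232) in the mutant and 0.0261 times (0.0167 to 0.0390) in the control. In dermal cells Kcne1l was at 9.02 CPM in the mutant and 7.92 CPM in the control, a ratio of 1.14 (0.980 to 1.32). A difference as large as the epidermal one was therefore not seen in these other classes, where the upper bounds were 1.13 for muscle and 1.32 for dermis.

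Glial-like cells had Ntm at 50.9 CPM in the mutant and 52.7 CPM in the control, a ratio of 0.965 (0.685 to 1.34), and mural-like cells had it at 42.2 and 40.4 CPM, a ratio of 1.04 (0.716 to 1.51). In mutant cells the Ntm intervals of glial, epidermal, mural and dermal cells overlapped, except that the epidermal level was above the dermal level. In control cells dermis stood highest, glial and mural cells next with overlapping intervals, and epidermis lower. Mural cells had Emx2 at 23.4 CPM in the mutant and 29.6 CPM in the control, and glial cells had 1 Emx2 UMI in the mutant and 6 in the control. Muscle cells had Emx2 at 3.48 CPM in the mutant and 7.04 CPM in the control, a ratio of 0.494 (0.301 to 0.780). Macrophages, mast and other blood cells and endothelial cells had at most 3.55 CPM of any member in either library.

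RNA of other cells in the droplets was measured with tracer genes. The dermal collagens Col1a1, Col1a2 and Col3a1 summed to 85.9 CPM in mutant and 113 CPM in control epidermal cells, where dermal cells had 3872 and 5150 CPM. If all this collagen came with dermal RNA, 7.16 of the 189 mutant Emx2 UMIs (3.79%) and 4.72 of the 15 control Emx2 UMIs (31.5%) would come with it. For Ntm the same reckoning gives 8.28 of 480 UMIs (1.73%) in the mutant and 7.0 of 52 (13.47%) in the control. For Kcne1l, with the muscle genes Pax7, Myf5, Des and Actc1 as tracers, it gives 11.6 of 402 UMIs (2.88%) in the mutant and 3.19 of 24 (13.3%) in the control. The mutant counts exceeded these amounts by a wide margin for all 3 genes. In cells without any collagen UMI the ratios, mutant over control, were 7.79 for Emx2, 5.11 for Ntm, 25.2 for Cstdc5 and 8.72 for Kcne1l.

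In the other direction, epidermal RNA traced by keratins would give 1.80 of the 1132 Emx2 UMIs, 4.57 of the 1310 Ntm UMIs and 3.83 of the 284 Kcne1l UMIs of mutant dermal cells. It would give 2.66 of their 7 Cstdc5 UMIs. Apart from Cstdc5, the dermal values therefore owed little to epidermal RNA by this measure.

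Hemoglobin genes differed between the libraries, and within the mutant some were higher in cells with a member UMI. All 6 hemoglobin genes at 10 CPM or more were higher in mutant epidermal cells, at a summed 7598 CPM in the mutant and 843 CPM in the control. In thinned mutant epidermal cells, the 79 cells with a Cstdc5 UMI had Hbb-bs at 7861 CPM and the 917 cells without one had it at 2947 CPM. The 64 thinned mutant cells with an Emx2 UMI had Hbb-bt at 1172 CPM and the 932 without one had it at 675 CPM. Hemoglobin made up at least 1% of the UMIs in 23 mutant cells and 1 control cell. In those 23 cells Kcne1l was at 71.8 CPM (43.8 to 111), Cstdc5 at 39.5 CPM and Emx2 at 25.1 CPM, against 43.9, 30.8 and 20.9 CPM in the other 973 mutant cells, and the intervals overlapped. Ntm was at 32.3 CPM in the 23 cells and 54.2 CPM in the others. Without these cells the ratios, mutant over control, were 23.0 for Cstdc5, 6.26 for Emx2, 4.67 for Ntm and 8.21 for Kcne1l. The 2448 mutant barcodes made up mostly of hemoglobin held 4 Emx2, 6 Ntm, 1 Cstdc5 and 7 Kcne1l UMIs, and the 376 control ones held 1 Kcne1l UMI and 0 of the others. The part of blood RNA in the member counts was not tested beyond these values.

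Markers of other cell types were counted in epidermal cells as well, and several sums differed between the libraries. The 8 dermal markers summed to 332 CPM in mutant and 491 CPM in control cells, with 4 of 6 measured genes lower in the mutant, and the decorin gene Dcn made up most of both sums, at 208 and 296 CPM. The 7 muscle markers summed to 32 CPM in the mutant and 11.3 CPM in the control, a ratio of 2.82 (2.09 to 3.88), with Pax7 and Myf5 at 0 in both. Among them Myog had 75 UMIs in mutant and 3 in control epidermal cells, a ratio of 12.5 (4.13 to 62.2), Des had 29 and 5, and Cdh15 had 10 and 0. Actc1, at 18.6 CPM in the mutant and 9.33 CPM in the control, was the 1 muscle marker at 10 CPM or more. Mutant muscle cells had Myog at 919 CPM, against 8.36 CPM in mutant epidermal cells. Macrophage markers summed to 13 CPM in mutant and 5.11 CPM in control epidermal cells, mural markers to 8.36 and 2.89 CPM, and endothelial markers to 3.34 and 1.11 CPM. Each of these 3 sums had a ratio with an interval above 1. The 6 melanoblast markers summed to 1.34 and 36.0 CPM, with 2 of 2 measured genes lower in the mutant. Hedgehog targets summed to 16.2 CPM in mutant and 16 CPM in control epidermal cells. Of these Ptch1 alone reached 10 CPM, at 10.9 CPM in the mutant and 6.66 CPM in the control. Of 3 measured Wnt target genes, 2 were lower in the mutant, Lef1 and Dkk4, while Axin2 was at 19.1 and 26.4 CPM. Of 5 measured genes of dissociation and stress, 1 was higher, Junb, at 11 CPM in the mutant and 5.33 CPM in the control. The part of each of these differences in the member levels was not tested.

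Genes of the epidermis itself also differed between the libraries. Of the 7 genes on the basal list 3 were at least 1.5-fold higher in the mutant, Krt5, Krt15 and the hemidesmosome collagen Col17a1. Col17a1 was at 34.6 CPM in mutant and 15.3 CPM in control cells. Krt5 and Krt15 belong to the keratin gate, so their CPM depends on the gate and on cell depth and is not read as a shift. Gated cells had a median of 28 UMIs of the gate keratins in both libraries, at median depths of 8422 UMIs in the mutant and 10927 in the control. Of 3 measured suprabasal genes 2 were higher, Krt1 at 23.6 CPM in the mutant and 12.2 CPM in the control and Krtdap at 49.2 and 27.5 CPM. Periderm is the transient outer layer of the embryonic epidermis. Of the 3 genes on the 8-gene periderm list at 10 CPM or more, the keratin gene Krt19 was higher in the mutant, with 122 UMIs against 10 in the control, a ratio of 6.12 (3.22 to 13.1). The claudin gene Cldn6 was lower, at 13.2 CPM in mutant and 20.4 CPM in control cells, and Krt17 was within 1.5-fold, at 39.9 and 49.97 CPM. Below 10 CPM, 4 more periderm genes had a ratio whose interval lay above 1. Krt18 had 83 UMIs in the mutant and 13 in the control, a ratio of 3.20 (1.77 to 6.27), and Krt8 had 16 and 1. Grhl3, a transcription factor of epidermal barrier formation, had 81 UMIs in mutant and 16 in control cells, a ratio of 2.54 (1.47 to 4.65), and Gabrp had 38 and 5, a ratio of 3.81 (1.499 to 12.4). The part of the periderm list in the member levels, that of Cstdc5 included, was not tested.

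Across 19 profiles, each a class in 1 library, the genes most like each member in level were found among 8954 genes by the correlation of log2(CPM + 1) values, as a description. The profiles share libraries, and the coefficients have no test. For Emx2 they were Mrc2 (Pearson's r 0.94), a collagen receptor, Col12a1 (0.93) and Gpc3 (0.92), genes high in the dermis. For Ntm they were Rac3 (0.92), the receptor gene Ephb2 (0.91) and the secreted Wnt inhibitor Sfrp1 (0.90). For Cstdc5 they were Wnt7b (0.85), Lgals7 (0.85) and Col17a1 (0.84), which were at 94.1, 105 and 34.6 CPM in mutant and 53.5, 38.9 and 15.3 CPM in control epidermal cells. For Kcne1l they were Cited1 (0.92), Ssx2ip (0.91) and Pnmal2 (0.91), all highest in muscle among epidermal, dermal and muscle cells. None of the 3 genes nearest to Emx2 had an epidermal difference of its size, with Mrc2 at 5.13 CPM in mutant and 4.89 CPM in control epidermal cells.

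**Figure D4:**
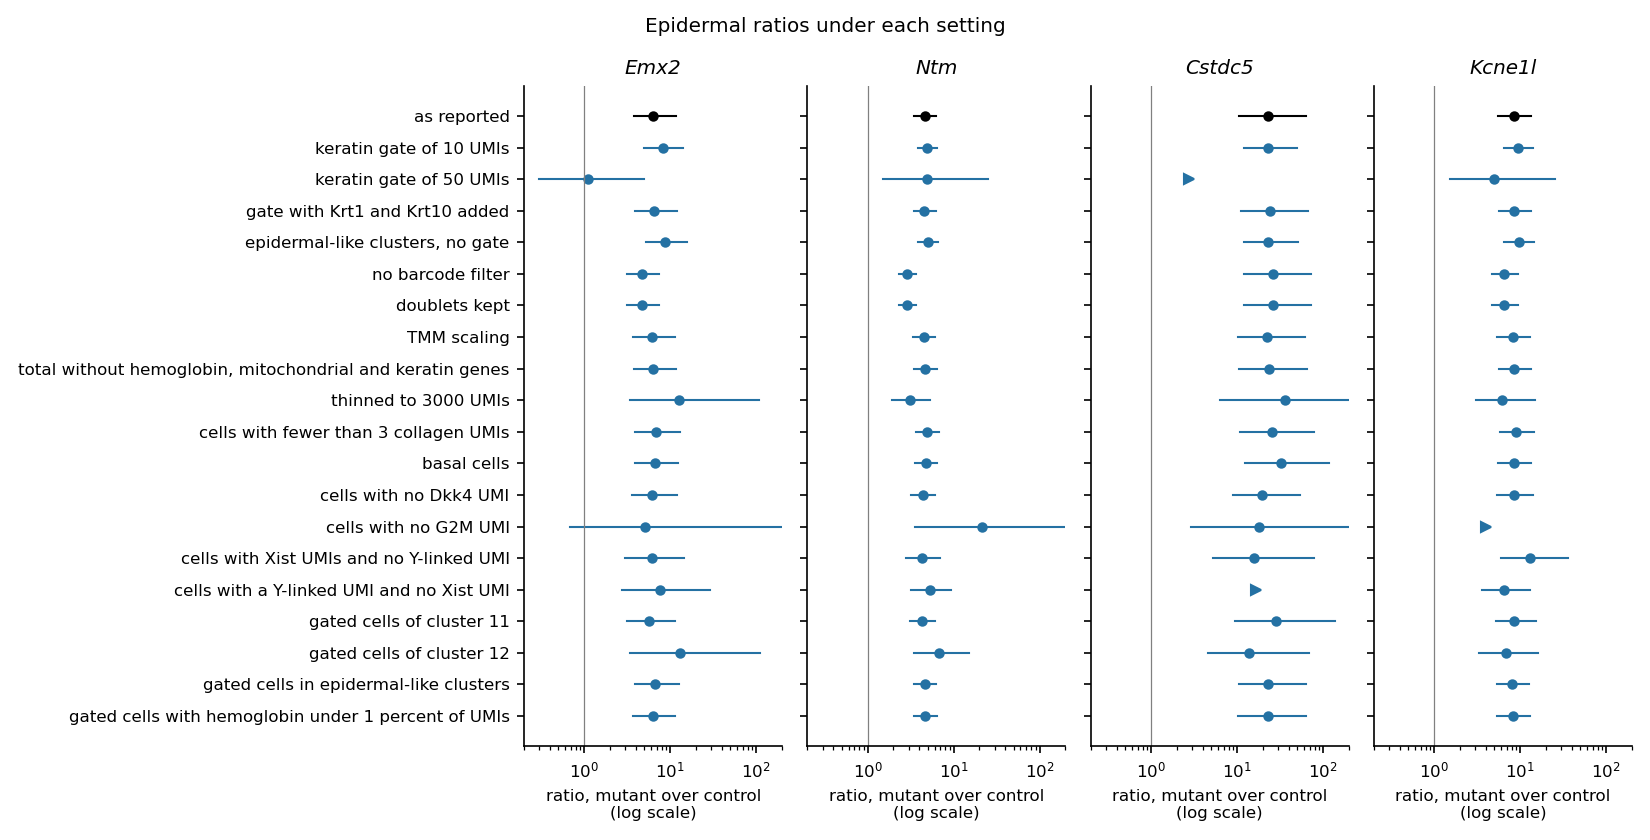
Epidermal ratios, mutant over control, of the 4 genes on a log axis as reported (black) and under 19 other choices of cells, scaling and depth (blue); bars are 95% counting intervals and triangles are lower bounds where the control had 0 UMIs. Ratios exceed 1 under every choice shown, and the interval includes 1 for Emx2 with a gate of 50 keratin UMIs and with no G2M gene UMI.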

How the data were processed

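Per the file headers, the deposited matrix of each library lists whole-number UMI counts for 32286 features by barcode. Cell Ranger 5.0.1 and the genome mm10 are named in the submitters' processing notes. How strand and reads matching several genes were handled is not given in the sources used here. Per the labels' protocols, tissue was digested with 0.25% trypsin at 37 °C for 20 minutes, DAPI-stained cells were sorted, and the libraries were prepared in parallel with 10x Genomics 3′ chemistry and sequenced on the same lane.

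Groups follow the sample titles. Barcodes with at least 1000 genes and at most 10% mitochondrial UMIs numbered 8783 of 11909 in the mutant and 12120 of 13566 in the control library, which held 73809828 and 109629368 UMIs. Doublets were called by a score of the Scrublet kind with exact neighbours (expected rate 8%), at thresholds of 0.3467 and 0.2952, which removed 207 mutant barcodes (2.36%) and 460 control barcodes (3.80%). Among cells past the keratin gate, 76 mutant and 43 control doublets were removed. Cells of both libraries were clustered together (2000 variable genes, 30 components, 15 neighbours, Leiden resolution 1.0), and 26 of 27 clusters were named from marker lists.

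UMIs were summed per library and class, scaled to 1000000 (CPM), and given with exact Poisson intervals, ratios with exact conditional binomial intervals and shares with exact Clopper-Pearson intervals. A count of 0 is given the limit that 3 counts allow. A ratio to that limit leaves out the counting error of the other count. With 1 library per group no test was possible. A gene was counted as higher or lower from a 1.5-fold difference with 1 CPM added to both values, at 10 CPM or more in either library. The text names the 4 members, the most abundant genes of each list, and the 3 genes most alike per member, and genes outside this rule were chosen after their values were seen. A few genes that the rule would name are not reported here. The members and all lists were chosen with earlier results of these data known. The alternatives changed the gate, filters, doublets, scaling, depth and cell subsets, and 4 were added after seeing the data. The counting of interval bounds was checked on simulated data. Transcripts came from GENCODE M21 and promoters from RefSeq. Python 3.11.15 was used with scanpy 1.11.5, scikit-learn 1.9.0, scikit-image 0.26.0, leidenalg 0.10.2, pandas 2.3.3, scipy 1.17.1, numpy 2.4.6 and matplotlib 3.10.9.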

Additional observations from a re-analysis of the deposited data

Results flagged for a closer look

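Emx2 and Ntm are flagged because their difference between the libraries runs in opposite directions in different cell classes. The ratio of Emx2, mutant over control, was 6.32 in epidermal cells, 0.753 in dermal cells and 0.494 in muscle cells. That of Ntm was 4.63 in epidermal cells and 0.587 in dermal cells. The intervals for counting error lay above 1 in the epidermis and below 1 in the dermis and, for Emx2, in muscle. Within the 6 dermal clusters with enough cells of both libraries to give a level, the Emx2 levels lay closer together or the other way round, at 68.5 CPM in mutant and 68.9 CPM in control cells of cluster 0, 63.4 and 64.3 CPM in cluster 13, 79.3 and 68.7 CPM in cluster 8, and the higher level in the mutant in clusters 5, 6 and 9. Ntm was lower in mutant cells of clusters 0, 5, 6, 8 and 9 but higher in cluster 13, at 72.8 CPM in mutant and 41.5 CPM in control cells. No intervals were computed for these cluster levels, and clusters 5, 6 and 9 held few mutant cells. The dermal clusters 2, 4 and 7, with Emx2 at 30.9, 31.4 and 15.1 CPM in the mutant, held almost no control cells. With 1 library per group the difference between classes was not tested. The muscle value rests on 23 Emx2 UMIs in the mutant and 108 in the control, where collagen was at 411 CPM in mutant and 417 CPM in control muscle cells.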

How the results depend on the processing

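No paired analysis was possible because each group has 1 library. Of the 76 epidermal ratios recomputed over 19 settings, 65 moved by less than the counting interval of the reported value and none changed direction. They ranged from 1.10 to 13 for Emx2, 2.91 to 21.1 for Ntm, 2.74 to 36.5 for Cstdc5 and 4.06 to 13.2 for Kcne1l. With a gate of 50 keratin UMIs, 40 mutant and 17 control cells were left. The ratio of Emx2 was then 1.10 and that of Kcne1l 4.93, and Cstdc5 was at 2.74 times the limit of 3 control counts. With doublets kept, and likewise with no barcode filter, Ntm was at 2.91; the 76 mutant and 43 control doublets had Ntm at 40.1 and 51.4 CPM and collagen at 1575 and 1923 CPM. After thinning to 3000 UMIs Emx2 was at 12.7 (3.39 to 107) and Ntm at 3.10 (1.92 to 5.30). In the 92 mutant and 44 control cells with no UMI of 7 G2M genes, the Ntm ratio was 21.1. Kcne1l was there at 4.06 times the limit of 3 control counts. That Ntm ratio rests on 1 control UMI and has an interval of 3.54 to 860. In cluster 12, chosen after seeing the data, Emx2 was at 13 (3.42 to 110) and Ntm at 6.78 (3.45 to 15.2). Differences in the share of cells with a UMI grew with depth, as their construction requires: at 5000 UMIs they were 8.99 points for Emx2, 17.7 for Ntm, 12.6 for Cstdc5 and 16.6 for Kcne1l, and unthinned 12.2, 22.3, 16.9 and 23.0 points. The mutant basal over suprabasal ratio reversed with 1 UMI of Krt1 or Krt10 as the limit, at 0.95 for Emx2 and 0.963 for Ntm. That of Cstdc5, 0.641 as reported, crossed 1 at 1.02. This loose limit called 445 mutant and 195 control cells suprabasal. The ratio moved with 10 UMIs (Emx2 1.15, Cstdc5 1.13), which left 9 mutant and 0 control suprabasal cells. The number of genes at least 1.5-fold higher was 67 at a minimum of 50 CPM, 1089 at a minimum of 5 UMIs and 123 with 10 CPM added, against 293. Where a value moved, the cause was not tested unless named.

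The main limits are the single library per group, the few suprabasal and Dkk4-positive cells, and counts of 6 to 52 UMIs per member in control epidermal cells. Intervals cover counting error, not the spread between embryos or pools. Cstdc5 shares terminal sequence with other stefin genes, and Emx2 and Emx2os overlap at their 5′ ends. Class names rest on marker lists applied to clusters.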

Other observations

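In the 1 unnamed cluster, which held 802 cells of both libraries and was led by Sfrp2, Ptn, Mgp and Tnmd, Emx2 was at 49.5 CPM in mutant and 21.4 CPM in control cells. Ntm was at 57.4 CPM in mutant and 51.0 CPM in control cells of that cluster, and Kcne1l at 19.1 and 15.5 CPM. This direction of Emx2 differs from that of the dermal-like class as a whole, and the difference was not tested.

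Erythroid-like cells, 227 in the mutant and 60 in the control, had Emx2 at 18.2 CPM in the mutant and 16.5 CPM in the control, Ntm at 29.8 and 22.6 CPM and Kcne1l at 20.1 and 19.6 CPM. The same cells had collagen at 2045 CPM in the mutant and 2556 CPM in the control, and its part in these values was not tested. The melanoblast-like cells, 49 in the mutant and 76 in the control, held 1 Ntm UMI in the mutant and 10 in the control.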
